A study of Arabidopsis thaliana with 39 samples.

Results

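The 10 genes described here encode plasma membrane transporters that carry amino acids into plant cells. They were taken by identifier: LHT1 (AT5G40780), AAP1 to AAP6 (AT1G58360, AT5G09220, AT1G77380, AT5G63850, AT1G44100 and AT5G49630), CAT1 (AT4G21120), PROT1 (AT2G39890) and PROT2 (AT3G55740). All 10 were among the 20001 genes tested, and all 10 passed the filter on low values. RNA had been sequenced from whole seedlings of the Arabidopsis thaliana accession Col-0, 14 days old and kept in liquid culture under continuous light. Mock seedlings were taken at 0 h, and the other groups were given 20 mM urea, 20 mM L-Glu (L-glutamate) or 1 mM SA (salicylic acid) and harvested at 6, 12, 24 or 48 h. Each of the 13 groups had 3 libraries, and no group had a mutation or transgene. The design text asks which genes L-Glu induces. Urea at the same hours served as the control for both L-Glu and SA, because mock was sampled at 0 h only.

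Plants take up amino acids with proton-coupled carriers of the plasma membrane. LHT1 is a high-affinity importer of acidic and neutral amino acids in root epidermis and leaf mesophyll. The AAP permeases carry neutral and acidic amino acids, with AAP3 and AAP5 also carrying basic ones, and several of them act along the veins, where amino acids are loaded into phloem and passed from xylem to phloem. CAT1 is a high-affinity carrier of basic amino acids, and the PROT carriers move proline, glycine betaine and GABA.

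The annotated starts of the genes that the results turn on were as follows, on the TAIR10.1 assembly, whose nuclear chromosomes are those of TAIR10. LHT1 lay on chromosome 5 from 16323567 to 16327382 on the plus strand, CAT1 on chromosome 4 from 11269985 to 11274007 and PROT2 on chromosome 3 from 20695433 to 20698292, both also on the plus strand. AAP5 lay on chromosome 1 from 16764392 to 16767685 and AAP6 on chromosome 5 from 20142430 to 20146690, both on the minus strand. The 250 bases before each of these 5 starts are printed because LHT1, CAT1 and PROT2 rose together in L-Glu, and AAP5 and AAP6 rose and then fell. Capitals mark TTGAC, the core of the W-box that WRKY factors bind, or GTCAA where it lies on the other strand.
LHT1 (chr5:16323317-16323566, plus strand): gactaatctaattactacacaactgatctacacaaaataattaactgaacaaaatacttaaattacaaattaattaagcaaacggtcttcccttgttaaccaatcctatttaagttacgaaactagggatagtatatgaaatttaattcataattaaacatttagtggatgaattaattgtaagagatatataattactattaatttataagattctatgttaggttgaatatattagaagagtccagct
CAT1 (chr4:11269735-11269984, plus strand): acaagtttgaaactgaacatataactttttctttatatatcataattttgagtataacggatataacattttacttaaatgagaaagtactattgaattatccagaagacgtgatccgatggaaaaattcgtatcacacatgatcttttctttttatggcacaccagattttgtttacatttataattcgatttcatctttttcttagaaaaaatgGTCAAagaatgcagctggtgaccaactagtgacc
PROT2 (chr3:20695183-20695432, plus strand): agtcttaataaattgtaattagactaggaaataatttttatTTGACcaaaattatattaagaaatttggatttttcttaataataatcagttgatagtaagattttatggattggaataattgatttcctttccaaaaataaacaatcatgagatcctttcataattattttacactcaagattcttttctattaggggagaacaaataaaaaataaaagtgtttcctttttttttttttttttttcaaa
AAP5 (chr1:16767686-16767935, minus strand): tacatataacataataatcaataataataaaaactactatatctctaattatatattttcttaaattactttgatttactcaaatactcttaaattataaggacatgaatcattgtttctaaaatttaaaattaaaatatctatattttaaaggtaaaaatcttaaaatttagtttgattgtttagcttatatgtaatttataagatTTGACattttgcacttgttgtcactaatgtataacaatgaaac
AAP6 (chr5:20146691-20146940, minus strand): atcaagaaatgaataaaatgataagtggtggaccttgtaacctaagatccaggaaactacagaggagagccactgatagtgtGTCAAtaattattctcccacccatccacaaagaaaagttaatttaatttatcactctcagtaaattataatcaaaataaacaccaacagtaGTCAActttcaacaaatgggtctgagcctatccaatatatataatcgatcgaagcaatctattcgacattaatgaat

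TTGAC occurred in CAT1 (first base at -34 from the gene start), PROT2 (-209), AAP5 (-43) and AAP6 (-168 and -77), and did not occur in this window of LHT1. Among the other members it was found before AAP3 (-170) and AAP4 (-78), so that 6 of 10 windows held it, against 44.9% of the 27443 windows of the same length over the genome. TGACG, the core of the as-1 element that TGA factors bind, occurred before PROT1 only (-180; 18.6% of all windows). ACTCAT, an element known from proline-responsive promoters, occurred before AAP3 only (-60; 12.31% of all windows). Both strands were searched, TTGAC and TGACG can overlap, and the 3 motifs were chosen after the expression values had been seen. A match describes letters and not a bound site. The window of PROT2 overlaps a gene annotated as AT3G00920, and LHT1 has 3 annotated mRNAs, of which the longest span sets the start used here.

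Values are the authors' normalized signal, and fold changes are differences of log2(value + 1), which understate changes of low genes. All tests came from limma on 1 fit of the 39 libraries, with adjusted p-values (Benjamini-Hochberg) over all 20001 genes and a call below 0.05. L-Glu 6 h replicate 2 and L-Glu 48 h replicate 2 stood farthest from the other libraries of their groups over all genes. Some of the results that rest on them are given with and without them. Whether the replicates came from separate cultures is not stated in the labels, and the p-values therefore reflect only how far these libraries spread, which may be technical. In whole seedlings, fewer cells of a type and less RNA per cell cannot be told apart.

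Against urea, L-Glu changed 6 of 10 (4 higher and 2 lower) transporters at 6 h, where 11.5% of all genes were called, 8.36% higher and 3.15% lower. At 12 h it changed 9 of 10 (7 higher and 2 lower), against 47.7% of all genes, 25.8% higher and 21.9% lower. At 24 h the count was 8 of 10 (5 higher and 3 lower), against 60.6% of all genes, 29.3% higher and 31.3% lower. At 48 h it was 8 of 10 (3 higher and 5 lower), against 52.9% of all genes, 25.2% higher and 27.6% lower. Higher calls thus outnumbered lower ones at 12 h, and lower calls outnumbered higher ones at 48 h. The median log2 fold change of the 10 was 1.30 at 12 h and -0.47 at 48 h. That of all genes was -0.04 and -0.06. LHT1, CAT1 and PROT2 held the highest fold changes at 12 and 24 h, and AAP4 the lowest at 48 h. The count at 6 h rests on few libraries: it was 2 without L-Glu 6 h replicate 1 and 6 without replicate 2. The count at 48 h was 8 without L-Glu 48 h replicate 2.

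**Figure D1:**
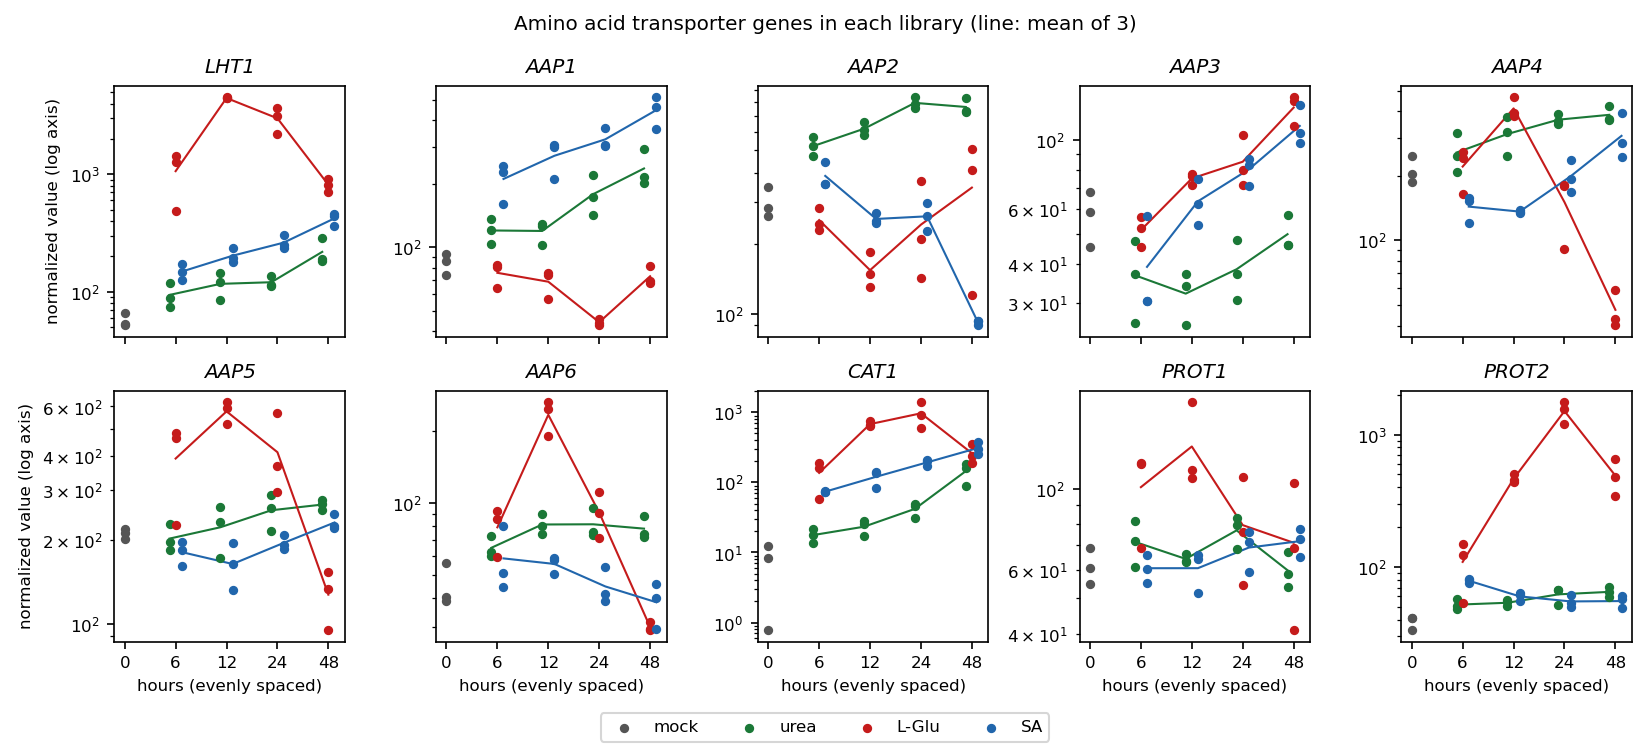
Authors' normalized signal of each of the 10 transporters (log axis) in every library, by hours of treatment; points are libraries, lines join group means, and colours mark mock, urea, L-Glu and SA. LHT1, CAT1 and PROT2 climb in L-Glu to 12 or 24 h, AAP4, AAP5 and AAP6 end below urea at 48 h, and AAP2 ends lowest in SA.

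LHT1, the broad high-affinity importer, had the largest fold change against urea of the 10 genes, at 12 h, and L-Glu exceeded urea at each of the 4 times. Mock libraries held 53.4, 51.8 and 66.4. At 6 h the urea libraries held 119.6, 88.0 and 73.9 and the L-Glu libraries 1424, 482 and 1283, so that the 3 L-Glu libraries lay above urea with replicate 2 the lowest of them. At 12 h the values were 84.6, 145 and 120.3 in urea and 4426, 4436 and 4515 in L-Glu, a 38.2-fold ratio of means. The L-Glu level was still 3166, 3636 and 2184 at 24 h and had dropped to 709, 812 and 919 at 48 h, while urea held 136, 111 and 114 and then 285, 181 and 189.5. The groups did not overlap at any time. The log2 fold changes were 3.37, 5.28, 4.60 and 1.92 at 6, 12, 24 and 48 h, each ± 0.258 (SE), with a highest adjusted p of 9.99e-08 at 48 h. In tests of the change itself, the difference between L-Glu and urea changed from 6 to 48 h by -1.45 ± 0.366 (SE, adjusted p = 0.00192) and from 12 to 48 h by -3.36 ± 0.366 (SE, adjusted p = 5.44e-09). The call from 6 to 48 h was lost without replicate 1 of every group (-1.05, adjusted p = 0.0859) or replicate 3 (-1.27, adjusted p = 0.0562), where the adjusted p over all alternatives ran from 2.24e-06 to 0.0859. Without L-Glu 6 h replicate 2 the 6 h value was 3.86, and without L-Glu 48 h replicate 2 the 48 h value was 1.91.

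In SA, LHT1 rose less: the libraries held 146, 172 and 126 at 6 h, 180.1, 235 and 193 at 12 h, 248, 302 and 235 at 24 h and 445, 459 and 359.9 at 48 h. The log2 fold changes against urea were 0.67, 0.82, 1.11 and 0.97, with adjusted p of 0.0478, 0.0143, 0.00112 and 0.00432. L-Glu exceeded SA directly by 2.70, 4.46, 3.49 and 0.95 at the 4 times (highest adjusted p = 0.00202). The SA call at 6 h was lost in 11 of 19 alternatives, where the adjusted p over all of them ran from 0.00876 to 0.223. Among these were fits without urea 6 h replicate 2 or 3 or SA 6 h replicate 1 or 2 (0.52 to 0.67, adjusted p = 0.0900 to 0.203). The SA call at 12 h was lost in 4 of 19 alternatives, where the adjusted p over all of them ran from 0.00421 to 0.139. Among these were fits without urea 12 h replicate 1 or SA 12 h replicate 2 (0.60 to 0.71, adjusted p = 0.0677 to 0.115). The call of L-Glu against SA at 48 h was lost without replicate 3 of every group (0.75, adjusted p = 0.0723), where the adjusted p over all alternatives ran from 4.21e-04 to 0.0723.

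CAT1, the carrier of basic amino acids, was the other member called higher in both treatments at 6, 12 and 24 h. It was low in mock, where the libraries held 12.5, 8.38 and 0.778. At 12 h urea held 25.2, 27.8 and 17.0, SA 138, 141 and 83.3 and L-Glu 663, 748 and 629, so that SA lay above urea and L-Glu above both, without overlap. The 24 h L-Glu libraries held 1391, 915 and 603, against 49.1, 45.5 and 31.1 in urea. L-Glu against urea gave log2 fold changes of 2.74, 4.83 and 4.44 at 6, 12 and 24 h, each ± 0.443 (SE), with adjusted p of 3.87e-05, 4.12e-11 and 1.09e-10. SA against urea gave 2.02, 2.31 and 2.20, with adjusted p of 6.28e-04, 1.12e-04 and 2.16e-04. By 48 h neither difference passed the test, at 0.86 for L-Glu (adjusted p = 0.102) and 1.14 for SA (adjusted p = 0.0515). Both calls turned on the settings: with a pseudocount of 4 both passed (adjusted p = 0.0441 for L-Glu and 0.0161 for SA), and over all alternatives the adjusted p ran from 0.0441 to 0.505 for L-Glu and from 0.00312 to 0.243 for SA.

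What changed for CAT1 between 12 and 48 h lay on both sides. The L-Glu libraries went down to 189.6, 240.5 and 353, and the urea libraries went up from 21.5, 13.6 and 18 at 6 h to 183, 162 and 89.8 at 48 h, a rise within urea of 2.92 ± 0.443 (SE, adjusted p = 1.94e-05). The SA libraries held 303, 253 and 374 at 48 h. The difference between L-Glu and urea fell by 3.97 from 12 to 48 h (adjusted p = 5.56e-06) and by 1.88 from 6 to 48 h (adjusted p = 0.0178). The call from 6 to 48 h was lost without L-Glu 6 h replicate 1 (-1.56, adjusted p = 0.0629), where the adjusted p over all alternatives ran from 0.00145 to 0.229. CAT1 in L-Glu 6 h replicate 2 was 58.8, against 189 and 162 in the other libraries, and without it the 6 h fold change was 3.26.

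PROT2, a proline and compatible-solute carrier, had its highest mean in L-Glu at 24 h and was still raised at 48 h. At 6 h the L-Glu libraries held 150.3, 53.9 and 124 and the urea libraries 50.9, 57.0 and 48.0. At 12 h L-Glu held 438, 501 and 449.8 and at 24 h 1749, 1563 and 1199, against 67.4, 67.5 and 51.6 in urea at 24 h. At 48 h L-Glu still held 342, 476 and 648, all above the 70.9, 64.5 and 59.3 of urea. The log2 fold changes were 0.94, 3.08, 4.57 and 2.85, each ± 0.225 (SE), with adjusted p of 0.00390, 2.15e-13, 2.45e-18 and 5.02e-13. The 6 h call was lost without L-Glu 6 h replicate 1 (0.65, adjusted p = 0.0840), where the adjusted p over all alternatives ran from 9.08e-07 to 0.251. Without L-Glu 6 h replicate 2, the lowest library, the 6 h value was 1.38. From 6 to 48 h the difference between L-Glu and urea widened by 1.91 ± 0.318 (SE, adjusted p = 9.59e-06), the largest upward change of the 10 genes.

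In SA, PROT2 passed the test at 6 h and at no later time. The SA libraries held 76.3 to 80.5 at 6 h and 48.9 to 60.2 at 48 h. The log2 fold changes of SA against urea were 0.60, 0.16, -0.17 and -0.23, of which the first was called (adjusted p = 0.0432) and the others were not (adjusted p = 0.640, 0.612 and 0.494). The SA call at 6 h was lost in 10 of 19 alternatives, where the adjusted p over all of them ran from 0.00945 to 0.227. Among these were fits without urea 6 h replicate 1 or 2 or 3 or SA 6 h replicate 1 or 2 or 3 (0.54 to 0.66, adjusted p = 0.0555 to 0.124). L-Glu exceeded SA by 2.93, 4.74 and 3.08 at 12, 24 and 48 h (highest adjusted p = 8.20e-13). Of the 36-base runs of PROT2, 9.19% also occur in PROT3 or in the pseudogenes AT1G41890 and AT1G42090, and how the counting treated such reads is not stated.

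PROT1, its relative with a phloem pattern, passed the test against urea at 12 h in L-Glu and in no other single comparison of L-Glu or SA with urea. At 12 h the L-Glu libraries held 107, 112 and 173 and the urea libraries 66.2, 63.5 and 62.9, a log2 fold change of 0.98 ± 0.242 (SE, adjusted p = 0.00109). This call was lost with equal totals (0.53, adjusted p = 0.0504) and without replicate 3 of every group (0.75, adjusted p = 0.0660), where the adjusted p over all alternatives ran from 1.25e-04 to 0.0660. At 6, 24 and 48 h the values were 0.46, 0.00 and 0.16 (adjusted p = 0.254, 0.994 and 0.615). SA against urea gave -0.23, -0.09, -0.16 and 0.26, none of them called (lowest adjusted p = 0.458). The L-Glu libraries at 48 h were spread, at 40.9, 104 and 68.8, with replicate 2 the highest. PROT2 and PROT1 differ in the same libraries: the mean level of PROT2 ranged 39-fold over the 13 groups and that of PROT1 2.19-fold.

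**Figure D2:**
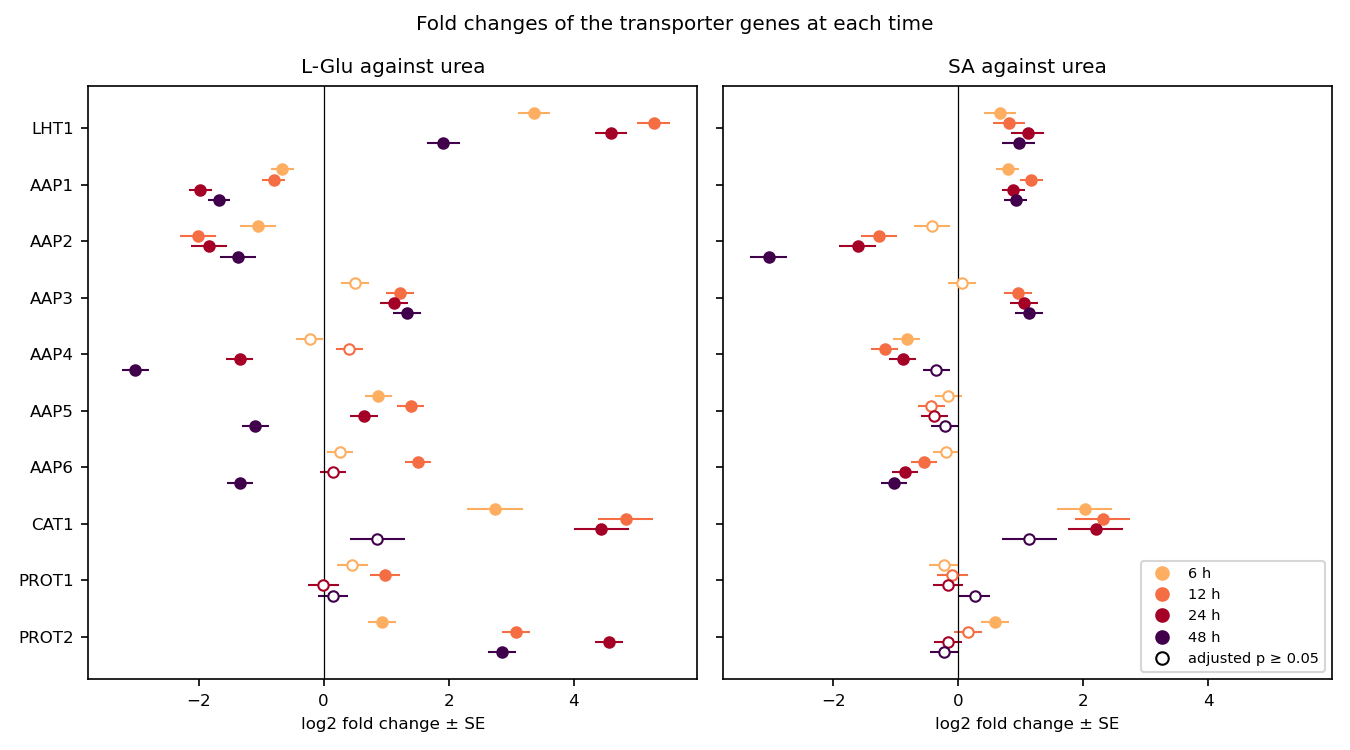
Log2 fold change (± SE) of each transporter against urea at the same hour, for L-Glu and SA at 6, 12, 24 and 48 h; filled points passed the test. LHT1, CAT1 and PROT2 reach the highest values in L-Glu, and AAP1 lies below 0 in L-Glu and above 0 in SA at each of the 4 times.

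AAP1, which imports neutral amino acids and glutamate into roots, was lower in L-Glu and higher in SA than in urea. At 24 h the urea libraries held 173, 220.5 and 142, the L-Glu libraries 43.7, 42.6 and 45.8 and the SA libraries 304, 368 and 305. At 48 h urea held 216, 293 and 201, L-Glu 68.8, 81.6 and 67.8 and SA 466, 515 and 364. The 3 groups did not overlap at either time. L-Glu against urea gave log2 fold changes of -0.66, -0.80, -1.97 and -1.67, each ± 0.184 (SE), with adjusted p of 0.0134, 5.23e-04, 2.09e-11 and 1.27e-09. SA against urea gave 0.79, 1.17, 0.88 and 0.92, with adjusted p of 0.00113, 6.33e-06, 3.32e-04 and 1.90e-04. The direct difference of L-Glu from SA was -1.46, -1.96, -2.85 and -2.60 (highest adjusted p = 1.67e-07). Both treatments share the urea libraries, and the direct test uses none of them. The L-Glu call at 6 h was lost without urea 6 h replicate 2 or L-Glu 6 h replicate 1 (-0.57 to -0.55, adjusted p = 0.0847 to 0.105), where the adjusted p over all alternatives ran from 0.00389 to 0.191. From 6 to 48 h the difference between L-Glu and urea changed by -1.01 ± 0.260 (SE, adjusted p = 0.00232): the L-Glu mean was 75.6 ± 10.1 (SD, n = 3) at 6 h and 72.8 ± 7.71 at 48 h, while the urea mean went from 120.1 ± 15.7 to 237 ± 49.0.

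AAP2, a phloem carrier in the passage of amino acids from xylem to phloem, was lower in both treatments from 12 h, and in L-Glu also at 6 h. At 12 h urea held 612, 658 and 579.9, L-Glu 148, 184 and 130.3 and SA 245, 269 and 249.8. At 48 h urea held 731, 730.0 and 829.6, SA 89.8, 93.3 and 93.7 and L-Glu 506, 121 and 411, so that SA lay lowest without overlap. L-Glu against urea gave -1.05, -2.01, -1.83 and -1.37, each ± 0.289 (SE, adjusted p = 0.0130, 5.20e-07, 1.43e-06 and 1.32e-04). SA against urea gave -0.42, -1.27, -1.61 and -3.03 (adjusted p = 0.288, 8.22e-04, 4.56e-05 and 4.17e-10). The difference between SA and urea changed from 6 to 48 h by -2.61 ± 0.408 (SE, adjusted p = 5.16e-05). L-Glu minus SA was -0.73 at 12 h (adjusted p = 0.0320) and 1.66 at 48 h (adjusted p = 7.44e-06).

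Single libraries bore on AAP2. L-Glu 48 h replicate 2 was far below the other libraries of its group, and without it the 48 h fold change of L-Glu was -0.74 (adjusted p = 0.00419, range over all alternatives 4.81e-07 to 0.0300). Without that library L-Glu minus SA at 48 h was 2.29 (adjusted p = 2.97e-11, range 2.18e-11 to 0.0141). The L-Glu call at 6 h was lost without urea 6 h replicate 2 or L-Glu 6 h replicate 1 or 3 (-1.02 to -0.98, adjusted p = 0.0503 to 0.0656), where the adjusted p over all alternatives ran from 1.36e-04 to 0.167. The call of L-Glu against SA at 12 h was lost without L-Glu 12 h replicate 1 or 3 or SA 12 h replicate 1 or 2 or 3 (-0.76 to -0.62, adjusted p = 0.0535 to 0.115), where the adjusted p over all alternatives ran from 0.00125 to 0.174.

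AAP3, which also carries basic amino acids and is known from root veins, was higher than in urea in both treatments from 12 h. At 48 h urea held 57.5, 46 and 46.3, L-Glu 137, 111 and 134 and SA 129.6, 106 and 97.9, with both treatments above urea. L-Glu against urea gave 0.50, 1.22, 1.13 and 1.33, each ± 0.224 (SE, adjusted p = 0.158, 2.92e-05, 4.98e-05 and 5.17e-06). SA against urea gave 0.06, 0.96, 1.06 and 1.13 (adjusted p = 0.866, 0.00104, 3.79e-04 and 1.72e-04). The direct difference of L-Glu from SA was 0.44, 0.25, 0.07 and 0.20, none called, and averaged over the 4 times it was 0.24 ± 0.112 (SE, adjusted p = 0.0538), which does not show that the treatments act alike. The difference between SA and urea widened from 6 to 48 h by 1.07 (adjusted p = 0.0311). This call was lost in 13 of 25 alternatives, where the adjusted p over all of them ran from 0.00433 to 0.380. Among these were fits without urea 6 h replicate 1 or 2 or urea 48 h replicate 2 or 3 or SA 6 h replicate 1 or 3 or SA 48 h replicate 1 or 2 (0.87 to 1.1, adjusted p = 0.0520 to 0.118). With every library scaled to the same total the L-Glu value at 24 h was 0.07 (adjusted p = 0.789, range over all alternatives 2.37e-05 to 0.789).

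AAP3 shares 15 exon bases with AT1G77370, a glutaredoxin family gene on the other strand. No source used here says whether the libraries kept strand, so reads of those bases cannot be told apart. At 12 h AT1G77370 held 45.7 ± 3.59 (SD, n = 3) in urea, 48.27 ± 2.09 in L-Glu and 73.8 ± 4.11 in SA. At 24 h it held 50.6 ± 10.4 in urea, 89.9 ± 7.75 in L-Glu and 79.9 ± 13.4 in SA. At 48 h it held 63.7 ± 10.3 in urea, 106 ± 21.0 in L-Glu and 102 ± 8.99 in SA. AAP3 was called higher in both treatments at each of these hours. Over the 13 groups the Pearson r of AAP3 with AT1G77370 was 0.7498. The part of the shared bases in the AAP3 values was not tested.

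AAP4, a further permease of the AAP family, was not called in L-Glu at 6 or 12 h and fell at 24 and 48 h. At 48 h urea held 367, 422 and 366 and L-Glu 40.1, 43 and 58.9, without overlap, and with the lowest fold change of any member in L-Glu. The log2 fold changes were -0.22, 0.41, -1.34 and -3.01, each ± 0.217 (SE, adjusted p = 0.602, 0.118, 2.14e-06 and 4.93e-14); the value at 12 h turned to -0.04 with equal totals and -0.01 under quantile normalization. SA against urea gave -0.82, -1.18, -0.89 and -0.35, called at 6, 12 and 24 h and not at 48 h (adjusted p = 0.00383, 6.59e-05, 0.00178 and 0.241). At 48 h the SA libraries held 284, 394 and 244, and L-Glu lay below them by 2.66 on the log2 scale (adjusted p = 8.60e-13). From 6 to 48 h the difference between L-Glu and urea changed by -2.79 ± 0.306 (SE, adjusted p = 4.08e-09).

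AAP5, which carries basic amino acids into roots, and AAP6, a xylem-parenchyma carrier, were higher in L-Glu at 12 h and lower at 48 h. At 6 h AAP5 held 226.5, 195.4 and 182.9 in urea and 462.1, 225.8 and 483.2 in L-Glu, where replicate 2 lay within the urea range. At 12 h AAP5 held 231, 261 and 172 in urea and 591, 621 and 517 in L-Glu. At 48 h AAP5 held 268, 278 and 255 in urea and 133, 94.7 and 153 in L-Glu. The order of the groups had thus turned, with no overlap at 12 or 48 h. AAP5 gave log2 fold changes of 0.88, 1.39, 0.65 and -1.09, each ± 0.217 (SE, adjusted p = 0.00516, 2.08e-06, 0.0105 and 6.15e-05), of which the 24 h value turned to -0.43 with equal totals (adjusted p = 0.0713). The 6 h call was lost without L-Glu 6 h replicate 1 or 3 (0.68 to 0.72, adjusted p = 0.0622 to 0.0752), where the adjusted p over all alternatives ran from 6.88e-06 to 0.221. The 24 h call was lost without urea 24 h replicate 2 or L-Glu 24 h replicate 2 (0.39 to 0.53, adjusted p = 0.0624 to 0.141), where the adjusted p over all alternatives ran from 0.00122 to 0.548. In SA no value of AAP5 was called (-0.16, -0.43, -0.38 and -0.21, lowest adjusted p = 0.128).

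AAP6 held 79.9, 74.0 and 89.7 in urea and 264, 192 and 247 in L-Glu at 12 h, and 74.1, 72.1 and 87.8 and 29.5, 29.2 and 31.6 at 48 h, so that here too the higher group changed. Its log2 fold changes were 0.26, 1.51, 0.15 and -1.34, each ± 0.208 (SE, adjusted p = 0.501, 2.41e-07, 0.556 and 1.41e-06), and the uncalled value at 24 h turned to -0.92 with equal totals (adjusted p = 1.86e-04, range over all alternatives 1.86e-04 to 0.977). Between 12 and 48 h the difference between L-Glu and urea fell by 2.85 for AAP6 (adjusted p = 1.96e-09) and by 2.49 for AAP5 (adjusted p = 6.86e-08). In SA, AAP6 was lower than in urea, called from 12 h on, with -0.19, -0.54, -0.86 and -1.02 (adjusted p = 0.545, 0.0446, 0.00173 and 2.53e-04). The SA call at 12 h was lost in 9 of 19 alternatives, where the adjusted p over all of them ran from 0.0214 to 0.333. Among these were fits without urea 12 h replicate 1 or 2 or 3 or SA 12 h replicate 1 or 2 or 3 (-0.61 to -0.47, adjusted p = 0.0533 to 0.145).

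SA against urea called 5 of 10 (4 higher and 1 lower) transporters at 6 h (29.4% of all genes, 15.9% higher and 13.5% lower), 7 of 10 (4 higher and 3 lower) at 12 h (31.8%, 16.2% and 15.6%), 7 of 10 (4 higher and 3 lower) at 24 h (30.6%, 15.1% and 15.5%) and 5 of 10 (3 higher and 2 lower) at 48 h (28.4%, 13.5% and 14.9%). LHT1 and AAP1 were among those higher at each of the 4 times. The median log2 fold change of the 10 lay between -0.16 and 0.03 over the times. The count at 6 h rests on several libraries, being 3 without urea 6 h replicate 2 or 3 or without SA 6 h replicate 1 or 2. Among the AAP genes, AAP1 and AAP3 were higher at 48 h and AAP2 and AAP6 were lower.

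Compared directly, L-Glu and SA differed in 5 of 10 (4 higher and 1 lower) transporters at 6 h (33.3% of all genes, 17.4% higher and 15.9% lower) and 9 of 10 (7 higher and 2 lower) at 12 h (52.5%, 29.1% and 23.3%). They differed in 6 of 10 (5 higher and 1 lower) at 24 h (62.5%, 31.7% and 30.8%) and 6 of 10 (3 higher and 3 lower) at 48 h (58.9%, 29.4% and 29.6%). At 12 h the L-Glu libraries were higher for AAP4 by 1.59 ± 0.217 (SE, adjusted p = 1.69e-07) and for AAP6 by 2.05 ± 0.208 (SE, adjusted p = 4.17e-10). At 48 h AAP5 was lower in L-Glu than in SA by 0.88 (adjusted p = 7.42e-04), and AAP6 differed by -0.32 (adjusted p = 0.197). CAT1 was higher in L-Glu than in SA by 2.52 at 12 h and 2.24 at 24 h (adjusted p = 1.21e-05 and 4.28e-05), and differed by 0.72 at 6 h and -0.28 at 48 h (adjusted p = 0.223 and 0.610). The count at 6 h was 3 without L-Glu 6 h replicate 1 or 3 and 8 without replicate 2. Averaged over the 4 times, 9 of 10 (6 higher and 3 lower) differed between L-Glu and urea (69.4% of all genes, 33% higher and 36.4% lower), 8 of 10 (4 higher and 4 lower) between SA and urea (57.4% of all genes, 28.2% higher and 29.2% lower) and 7 of 10 (6 higher and 1 lower) between L-Glu and SA (72.9% of all genes, 37.3% higher and 35.6% lower).

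The difference between L-Glu and urea changed from 6 to 48 h for 8 of 10 (2 higher and 6 lower) transporters, against 35.5% of all genes (16.4% upward and 19.1% downward). Those that moved downward included AAP5, by -1.97 ± 0.307 (SE, adjusted p = 3.28e-06), and AAP6, by -1.60 ± 0.295 (SE, adjusted p = 4.54e-05), beside LHT1, CAT1, AAP1 and AAP4. PROT2 and AAP3 moved upward, AAP3 by 0.83 ± 0.317 (SE, adjusted p = 0.0394). The AAP3 call was lost in 13 of 26 alternatives, where the adjusted p over all of them ran from 0.0108 to 0.428. Among these were fits without urea 6 h replicate 1 or 2 or urea 48 h replicate 2 or 3 or L-Glu 6 h replicate 1 or 3 or L-Glu 48 h replicate 1 or 3 (0.63 to 0.84, adjusted p = 0.0547 to 0.143). From 12 to 48 h, 6 of 10 (all lower) changed, against 33% of all genes (20.8% downward), with AAP4 at -3.43 ± 0.306 (SE, adjusted p = 8.42e-11) and AAP1 at -0.88 ± 0.260 (SE, adjusted p = 0.00861). The difference between SA and urea changed from 6 to 48 h for 2 of 10 (1 higher and 1 lower), AAP3 and AAP2, against 7.41% of all genes (2.69% upward and 4.72% downward). The last 2 comparisons were added after the values had been seen.

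The control itself was not constant. Urea over its 4 times differed from mock for 8 of 10 (7 higher and 1 lower) transporters (13.9% of all genes, 7.79% higher and 6.14% lower); treatment and hours cannot be told apart there, since mock was sampled at 0 h. CAT1 was higher in urea by 2.72 ± 0.350 (SE, adjusted p = 1.97e-06), and LHT1 by 1.16 ± 0.204 (SE, adjusted p = 1.66e-04). AAP2 was higher in urea than in mock by 1.16 ± 0.228 (SE, adjusted p = 5.75e-04), while L-Glu and SA against mock gave -0.41 and -0.43 (adjusted p = 0.128 and 0.119). AAP3 was the member lower in urea, at -0.56 ± 0.177 (SE, adjusted p = 0.0297), with an adjusted p over all alternatives of up to 0.344, and gave 0.49 in L-Glu and 0.25 in SA against mock (adjusted p = 0.0183 and 0.248). The count was 5 without mock replicate 1. L-Glu over its 4 times differed from mock for 9 of 10 (7 higher and 2 lower) (57.6% of all genes, 28.8% higher and 28.8% lower) and SA for 4 of 10 (all higher) (50.3% of all genes, 24.4% higher and 25.9% lower), in comparisons that share the same 3 mock libraries. Urea at 48 h differed from urea at 6 h for 3 of 10 (all higher) (15.8% of all genes, 7.28% higher and 8.51% lower): CAT1, LHT1 by 1.21 ± 0.258 (SE, adjusted p = 0.00120) and AAP1 by 0.96 ± 0.184 (SE, adjusted p = 3.49e-04). From 12 to 48 h the LHT1 mean went from 117 ± 30.4 to 218 ± 57.7 in urea and from 4459 ± 49.1 to 814 ± 105 in L-Glu (SD, n = 3).

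Levels between genes were compared per kilobase of the longest transcript, as mean signal per kb. In urea at 12 h the order from highest to lowest was AAP2 at 320.1, then AAP4 at 149, AAP5 at 102, AAP1 at 62.9, LHT1 at 61.4, AAP6 at 41.7, PROT1 at 32.4, PROT2 at 27.8, AAP3 at 17.0 and CAT1 at 6.60. The ranges of neighbours overlapped for AAP4 and AAP5, AAP1 and LHT1 and LHT1 and AAP6. In L-Glu at 12 h the order was LHT1 at 2347, then AAP5 at 266, PROT2 at 239.7, AAP4 at 196, CAT1 at 192, AAP6 at 120.5, AAP2 at 80.0, PROT1 at 65.8, AAP3 at 39.9 and AAP1 at 36.1, with overlapping ranges for AAP5 and PROT2, AAP4 and CAT1, AAP2 and PROT1 and AAP3 and AAP1. LHT1 thus moved from place 5 to place 1 and PROT2 from place 8 to place 3. For CAT1 the group mean went from 7.23 in mock, where its libraries were 12.5, 8.38 and 0.778, to 969.6 in L-Glu at 24 h. Over the 13 groups the mean signal ranged 78.0-fold for LHT1 and 39-fold for PROT2. The other 7 ranged 2.19-fold (PROT1) to 10.2-fold (AAP1).

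As a description over the 13 group means of log2(value + 1), which share the treatments and hours, LHT1 correlated with CAT1 (Pearson r = 0.883) and PROT2 (0.861), and AAP5 with AAP6 (0.854). AAP2 and AAP3 ran opposite (-0.749), and LHT1 and AAP1 had an r of -0.477. Among 15562 genes compared, those most like LHT1 were HSFA8 (0.984), RAV1 (0.977), AT5G48540 (0.976), RGXT2 (0.974) and ABCC7 (0.973). HSFA8 is a heat shock factor and ABCC7 an ABC transporter. Those most like CAT1 were MSS1 (0.986), AT1G51890 (0.974), AT2G17760 (0.965), ATGLR1.2 (0.958) and AT1G74360 (0.955), of which MSS1 is the hexose importer also called STP13 and ATGLR1.2 a glutamate receptor-like channel. Those most like AAP1 were AT1G08230 (0.987), SAC3A (0.985), NIT4 (0.978), PUT1 (0.971) and AGL20 (0.968). AT1G08230 is annotated as a transmembrane amino acid transporter, PUT1 carries polyamines and AGL20 is the flowering regulator SOC1. Those most like AAP2 were AT1G66100 (0.941), DWA2 (0.935), DAW1 (0.898), GRP5 (0.880) and GSTU23 (0.878).

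Further importers of the same families, 22 listed of which 19 were tested, moved in both directions. Averaged over the 4 times, L-Glu against urea gave 8 higher and 7 lower of 19 (median log2 fold change 0.14), beside 33% and 36.4% of all genes and a median of -0.05. With equal totals the split was 5 higher and 9 lower (median -0.35). The median of all genes was then -0.53, and 23.5% of all called genes were higher. LHT6, a close homologue of LHT1, rose by 4.70 ± 0.288 (SE, adjusted p = 2.16e-16): its libraries held 3.48 to 4.67 in urea and 367 to 664 in L-Glu at 24 h. LHT7 rose by 2.16 ± 0.354 (SE, adjusted p = 2.01e-06), LHT2 by 1.69 (adjusted p = 1.76e-13) and CAT3 by 1.29 (adjusted p = 1.18e-13). LHT2 went from 12.5 to 21.3 in urea to 70.3 to 91.4 in L-Glu at 12 h, without overlap. Of the 36-base runs of LHT1, 0.262% also occur in LHT2.

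In SA the same list gave 7 higher and 8 lower of 19 (median -0.01), beside 28.2% and 29.2% of all genes. LHT7 rose by 7.23 ± 0.354 (SE, adjusted p = 2.29e-18), from 2.60 to 9.99 in urea to 1182 to 1378 in SA at 6 h, and it stayed at 1164 to 1666 at 48 h. PROT3 was lower by 2.21 (adjusted p = 1.76e-08) and AT1G47670 by 1.65 (adjusted p = 2.63e-11). The average of LHT1 in SA was 0.89 (adjusted p = 3.84e-07). In L-Glu, LHT7 was spread between libraries, at 9.53 to 205 at 24 h.

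Genes of amino acid export, the UMAMIT carriers and the GLUTAMINE DUMPER (GDU) proteins that raise export, were averaged over the 4 times. L-Glu against urea gave 4 higher and 4 lower of 15, beside 33% and 36.4% of all genes, and SA against urea 2 higher and 7 lower of 15, beside 28.2% and 29.2%. With equal totals the L-Glu split was 1 higher and 9 lower (median -0.55). The median of all genes was then -0.53, and 23.5% of all called genes were higher. By time, L-Glu gave 1 higher and 4 lower of 15 at 12 h (median -0.28, beside 25.8% and 21.9% of all genes). At 48 h it gave 4 higher and 2 lower of 15 (median 0.71, beside 25.2% and 27.6% of all genes). From 12 to 48 h the difference between L-Glu and urea moved upward for 5 of 15 and downward for 0 (median 0.53). Of all 20001 genes, 33% changed between these hours, 2444 upward and 4151 (20.8%) downward, and the median of all genes was -0.13. Averaged over the 4 times, the medians of the 15 export genes were -0.06 in L-Glu and -0.27 in SA. UMAMIT14, known from phloem unloading in roots, was lower in both, by 1.55 in L-Glu and 1.93 in SA (adjusted p = 3.61e-07 and 8.87e-09). In L-Glu, UMAMIT17 and UMAMIT20 were lower (-1.01 and -0.84) and GDU1 higher (0.77). In SA, UMAMIT29 was higher by 2.47 ± 0.261 (SE, adjusted p = 5.68e-10), and GDU4 and UMAMIT5 were lower (-1.84 and -1.68). UMAMIT5 is annotated as WAT1 (Walls Are Thin 1), a name that does not point to amino acid export.

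The auxin importers AUX1, LAX1, LAX2 and LAX3, which belong to the same wider family of carriers, averaged over the 4 times were lower in 4 of 4 cases in each treatment, beside 36.4% of all genes lower in L-Glu and 29.2% in SA, under the deposited scaling, recomputed trimmed-mean factors, equal totals and quantile normalization. In L-Glu they fell by 0.52 (LAX2) to 0.97 (AUX1), and in SA fell by 1.08 (LAX1) to 1.85 (LAX3). By time, 1 of 4 was called lower in L-Glu at 6 h and 1 at 12 h, then 3 at 24 h and 3 at 48 h, beside 3.15%, 21.9%, 31.3% and 27.6% of all genes. In SA 3 of 4 were lower at 6 h and 4 at each later time, beside 13.5%, 15.6%, 15.5% and 14.9% of all genes. A further 6 tested genes were annotated only as transmembrane amino acid transporters. On average they gave 2 higher and 0 lower of 6 in L-Glu (all genes 33% and 36.4%). With equal totals the split was 1 higher and 5 lower (median -0.41). The median of all genes was then -0.53, and 23.5% of all called genes were higher. In SA these 6 gave 4 higher and 0 lower (all genes 28.2% and 29.2%). AT3G56200 was the one with the largest change in L-Glu, 1.64 ± 0.0901 (SE, adjusted p = 1.07e-17), and was higher in SA too (0.84, adjusted p = 9.18e-10). Both treatments share the urea libraries.

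**Figure D3:**
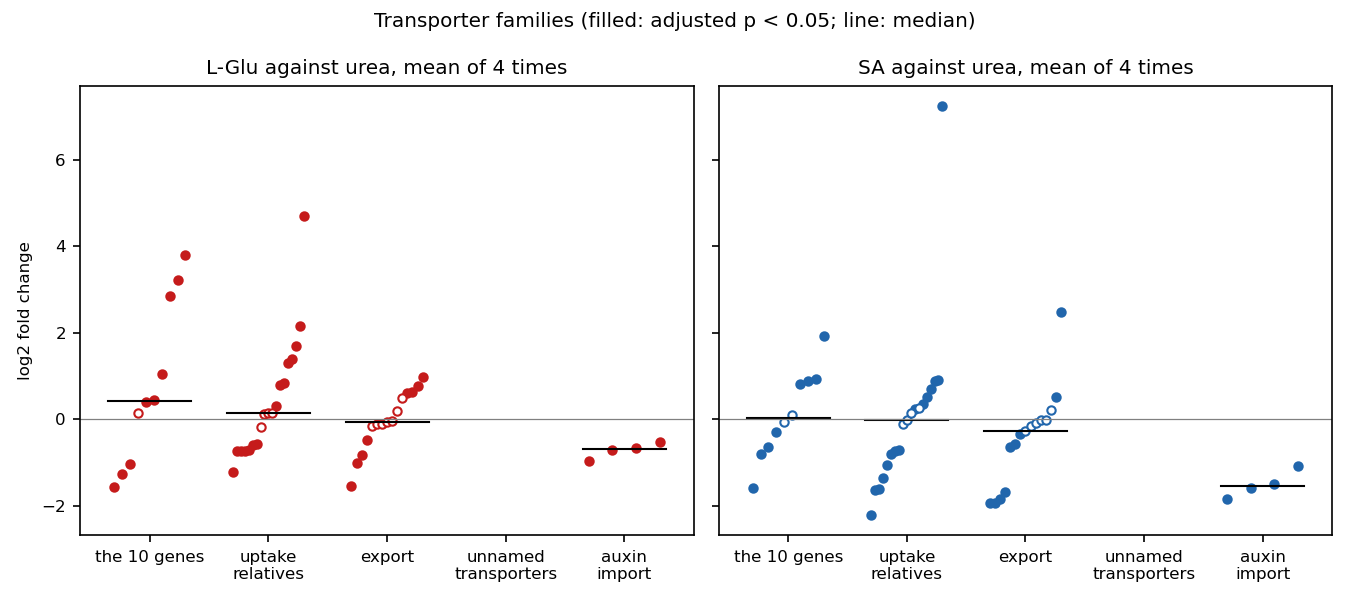
Log2 fold change against urea, averaged over the 4 times, of the tested genes of the transporter lists in L-Glu and in SA. Points are genes and filled points passed the test. The column of unnamed transporters is empty because the 6 tested genes of that list were not drawn. LHT1 and LHT6 stand highest in L-Glu and LHT7 in SA, and the 4 auxin importers lie below 0 in both.

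Markers of seedling tissues moved with the treatments. The summed signal of 9 green leaf markers in 48 h libraries was 1485 to 1737 for L-Glu, 57349 to 59616 for urea and 63146 to 76582 for SA. Of these, 9 of 9 were called lower in L-Glu than in urea, beside 27.6% of all genes. The summed signal of 9 root markers was 16425 to 20962 in L-Glu, 2601 to 3269.6 in urea and 1639 to 1859 in SA at 48 h. In L-Glu 2 of 9 root markers were higher and 1 was lower at 48 h, beside 25.2% and 27.6% of all genes. The median log2 fold change of these 9 was -0.32, so the larger sum does not describe most of them. In SA 7 of 9 were lower, beside 14.9% of all genes, and EXPA7, a root hair gene, was listed at 0 in every SA 48 h library. The summed signal of 9 phloem and xylem markers at 48 h was 846 to 1488 in L-Glu, 1740.1 to 2054 in urea and 2771 to 3639 in SA. Against urea, 5 of 9 were lower in L-Glu, beside 27.6% of all genes. In SA 2 were higher and 3 lower, beside 13.5% and 14.9% of all genes, and the median log2 fold change of the 9 was -0.05. The part of these shifts in the falls of AAP1, AAP2, AAP4, AAP5 and AAP6 and in the rises of LHT1, CAT1 and PROT2 was not tested. At 12 h, where LHT1 had its highest mean, the green leaf sum was 58779 to 64397 in L-Glu and 102332 to 109674 in urea, and the root sum was 3526 to 3818 and 3255 to 3871. The phloem and xylem sum at 12 h was 1069 to 1219 in L-Glu and 2137 to 2419 in urea, with 1 of 9 higher and 5 lower, beside 25.8% and 21.9% of all genes.

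The scaling matters in L-Glu. Column totals of the deposited values were 5278622 to 5886170 in L-Glu at 24 h and 2445645 to 2828598 in urea over the 4 times. Scaling every library to the same total moved the median log2 fold change of all genes to -0.47, -1.1 and -0.54 at 12, 24 and 48 h, and quantile normalization to -0.29, -0.27 and -0.15. With equal totals LHT1 was still higher by 4.82 at 12 h and 3.52 at 24 h, CAT1 by 4.38 and 3.37, and PROT2 by 2.63 and 3.49. AAP1 was lower by 3.03 and AAP2 by 2.90 at 24 h. In these comparisons the counts of transporters called with equal totals were 6 higher and 2 lower at 12 h and 3 higher and 5 lower at 24 h. They were 3 higher and 5 lower at 48 h and 4 higher and 4 lower averaged over the 4 times. In that average AAP5 had turned to -0.05 and PROT1 to -0.10, from 0.46 and 0.40. Of all genes called with equal totals, 28.4% were higher at 12 h, 25.6% at 48 h and 23.5% over the 4 times. Of all genes called, 48% were higher in L-Glu at 24 h as deposited, 17.9% with equal totals and 40.6% under quantile normalization. The directions of LHT1, CAT1, PROT2, AAP1 and AAP2 at 12 and 24 h were the same under all 4 scalings tried. For AAP3, AAP5, AAP6 and PROT1 at 24 h the direction or the call depended on it: PROT1 was 0.00 as deposited and -1.07 with equal totals (adjusted p = 1.11e-04, range over all alternatives 1.11e-04 to 0.998).

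**Figure D4:**
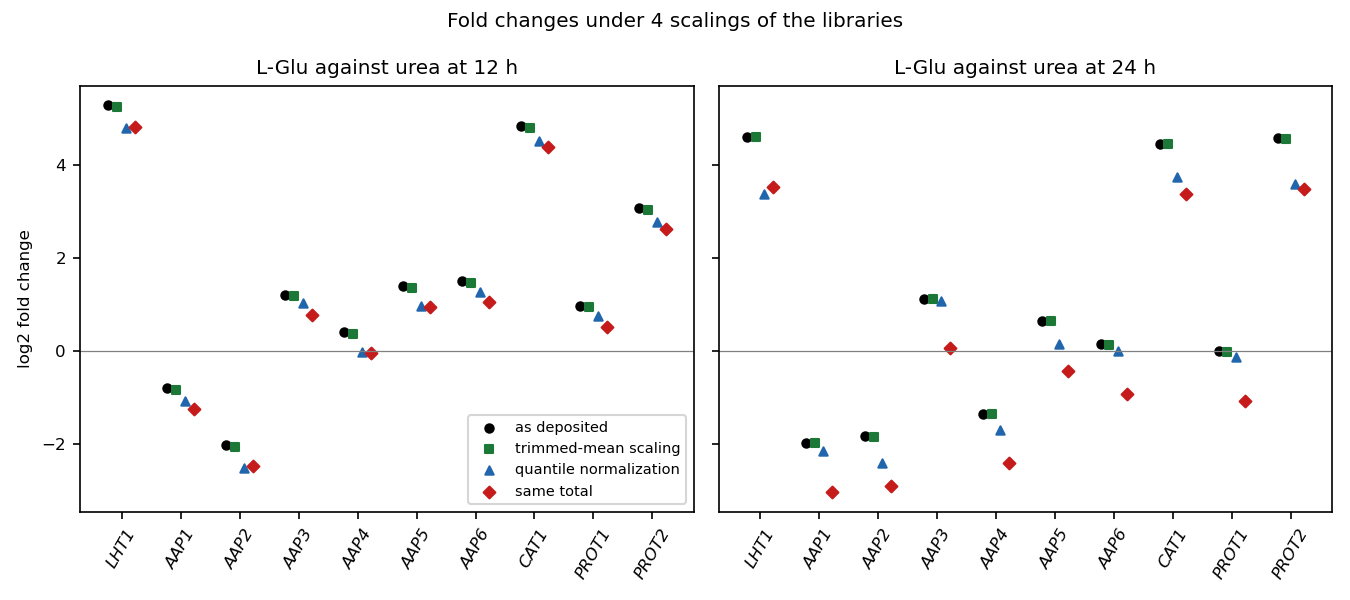
Log2 fold change of L-Glu against urea for each transporter at 12 and 24 h under the deposited scaling, recomputed trimmed-mean factors, equal totals and quantile normalization. LHT1, CAT1 and PROT2 stay above 0 under all 4 scalings at 12 and 24 h, and AAP5 at 24 h turns from above to below 0 with equal totals.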

How the data were processed

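The authors deposited 1 table of normalized signal values, 1 per gene and library, for 39 libraries and 20001 genes. Its 39 value columns were matched to samples by treatment, hours and replicate number. Tools named in the submitters' processing notes are edgeR 3.22.3, HTSeq 0.6.0 and TopHat2 2.1.0, with build TAIR10; the scaling method is not given in those notes. With the smallest value of a library as the step, 100.0% of the 5569 low values (up to 20 times the smallest) of urea 6 h replicate 3 lay within 0.1 of a whole multiple, against a median of 19.0% over the 39 libraries. Low values of that library thus keep steps like those of counts, but whole reads were not recovered across the libraries, depth is not stated, and tests for counts were not used.

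Values were tested as log2(value + 1) with limma 3.58.1 (R 4.3.3), with an intensity trend, in 1 fit of 13 group means with 26 residual degrees of freedom. The filter kept genes that reached 1 in 3 or more libraries, which all 20001 did. P-values were adjusted by Benjamini-Hochberg over all genes in each of 22 comparisons, with a threshold of 0.05. The script was tested on simulated data. Alternatives were pseudocounts 0.25 and 4, no filter or a minimum of 5, trimmed-mean, equal-total and quantile scaling, no trend, only the compared groups, a replicate block and leaving out libraries. Where a call is said to be lost without named libraries, other alternatives may have lost it too. The range over all alternatives covers them.

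The members, gene lists and tests were chosen with earlier results of these data known. All 10 members are named, up to 4 called genes per list by largest change whose higher group had a mean of 10 or more, and 5 genes most alike in pattern for each of LHT1, AAP1, AAP2 and CAT1. Names, positions and sequences came from the RefSeq annotation of TAIR10.1.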

Additional observations from a re-analysis of the deposited data

Results flagged for a closer look

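The following transporters had a treatment effect that differed between hours of treatment, by limma's test of the difference itself. From 6 to 48 h the difference between L-Glu and urea on the log2 scale moved down for 6 of them, with changes of -1.45 (adjusted p = 0.00192) for LHT1, -1.01 (adjusted p = 0.00232) for AAP1, -2.79 (adjusted p = 4.08e-09) for AAP4, -1.97 (adjusted p = 3.28e-06) for AAP5, -1.60 (adjusted p = 4.54e-05) for AAP6 and -1.88 (adjusted p = 0.0178) for CAT1. It moved up by 0.83 (adjusted p = 0.0394) for AAP3 and 1.91 (adjusted p = 9.59e-06) for PROT2. From 12 to 48 h its changes were -3.36 (adjusted p = 5.44e-09) for LHT1, -0.88 (adjusted p = 0.00861) for AAP1, -3.43 (adjusted p = 8.42e-11) for AAP4, -2.49 (adjusted p = 6.86e-08) for AAP5, -2.85 (adjusted p = 1.96e-09) for AAP6 and -3.97 (adjusted p = 5.56e-06) for CAT1. The difference between SA and urea changed from 6 to 48 h by -2.61 (adjusted p = 5.16e-05) for AAP2 and 1.07 (adjusted p = 0.0311) for AAP3. Some of these calls were lost in alternatives. From 6 to 48 h in L-Glu, that of LHT1 was lost in 2 of 26 (highest adjusted p = 0.0859), CAT1 in 3 of 26 (0.229) and AAP3 in 13 of 26 (0.428). The AAP1 call from 12 to 48 h was lost in 2 of 26 (0.0798). The AAP3 call in SA was lost in 13 of 25 (0.380). Single genes were not tested for an outlying library, since each group holds 3.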

How the results depend on the processing

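Of the single-transporter values called as reported, 3402 alternative values kept the direction and the call, 163 kept the direction without the call and 3 turned; of those not called, 93 passed the test and 58 turned. With every library scaled to the same total, the turned log2 values were AAP4 -0.04 for L-Glu against urea at 12 h, AAP5 -0.43 and AAP6 -0.92 for L-Glu against urea at 24 h, PROT1 -0.34 for L-Glu against urea at 48 h, AAP3 -0.12 for L-Glu against SA at 12 h, AAP3 -0.89 and PROT1 -0.80 for L-Glu against SA at 24 h, AAP3 -0.13 for L-Glu against SA at 48 h, AAP5 -0.05, AAP6 -0.36 and PROT1 -0.10 for L-Glu against urea over the 4 times, PROT2 -0.01 for SA against urea over the 4 times and AAP2 -0.38 and AAP3 -0.16 for L-Glu against SA over the 4 times. Under quantile normalization they were AAP4 -0.01 for L-Glu against urea at 12 h and AAP2 -0.06 for L-Glu against SA over the 4 times, and with recomputed trimmed-mean factors AAP5 0.01 for the change of SA against urea from 6 to 48 h. Counts of transporters called moved by over 1.5 times for SA against urea at 6 h (5, and 3 with trimmed-mean factors or no trend), for the change of the difference between SA and urea from 6 to 48 h (2, and 1 under quantile normalization), for urea at 48 against 6 h (3, and 6 with only the compared groups) and for L-Glu against SA at 6 h (5, and 9 without L-Glu 6 h replicate 2 and L-Glu 48 h replicate 2 together). Leaving out single libraries or 1 replicate number gave counts of 2 to 7 for L-Glu against urea at 6 h, 2 to 4 for SA against urea at 6 h, 3 to 9 for L-Glu against SA at 6 h, 4 to 8 for urea over the 4 times against mock, 3 to 5 for urea at 48 h against urea at 6 h, 5 to 8 for the change of L-Glu against urea from 6 to 48 h and 1 to 2 for the change of SA against urea from 6 to 48 h. Uncalled values that turned when libraries were left out ranged as follows: AAP6 -0.06 to 0.43 and PROT1 -0.33 to 0.27 for L-Glu against urea at 24 h, PROT1 -0.16 to 0.04 for SA against urea at 12 h, PROT1 -0.43 to 0.25 for L-Glu against SA at 48 h, AAP2 -0.09 to 0.23 for L-Glu against SA over the 4 times, PROT1 -0.89 to 0.14 and AAP2 -0.72 to 0.39 for the change of L-Glu against urea from 6 to 48 h, AAP1 -0.05 to 0.29 and AAP5 -0.14 to 0.04 for the change of SA against urea from 6 to 48 h, AAP4 -0.44 to 0.14 for L-Glu against urea at 6 h, PROT1 -0.16 to 0.50 for L-Glu against urea at 48 h, AAP3 -0.23 to 0.26 for SA against urea at 6 h and AAP2 -0.68 to 0.20, AAP3 -0.16 to 0.24 and PROT1 -0.20 to 0.47 for L-Glu against SA at 24 h. Leaving out 1 replicate number in every group also ended the SA calls of AAP4 at 6 h, AAP3 at 24 h and AAP6 at 24 and 48 h, with highest adjusted p of 0.0998, 0.0502, 0.0838 and 0.0556. The setting without L-Glu 6 h replicate 2 and L-Glu 48 h replicate 2 was chosen after seeing the data. Read depth was not recovered across the libraries, so the counting error of low values, such as CAT1 in mock, is not given. The cause was not tested for any turned value.

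The main fit held no replicate block. In 0 of 78 pairs of groups was the correlation of same-numbered libraries over 0.1 for every number (range -0.123 to 0.203). Same-numbered libraries were not compared with differently numbered ones, so a shared effect of the replicate number was not tested. With the replicate number as a block, the count of transporters called went from 5 to 6 for SA against urea at 48 h (CAT1 1.14, adjusted p = 0.0382), from 7 to 9 for L-Glu against SA over the 4 times (AAP3 0.24, adjusted p = 0.0410, and AAP4 -0.23, adjusted p = 0.0476) and from 3 to 4 for urea at 48 against 6 h (AAP4 0.60, adjusted p = 0.0453), and changed no other count.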
